A study of Mus musculus with 10 samples.

Results

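Heavy-chain sequences whose CDR3, the third complementarity-determining region, held 7 or fewer amino acid residues made up 16790 of 283802 productive heavy-chain clonotypes in 10 mice, or 5.92%. They were chosen by length alone. Sequences of 1 mouse that had the same V gene, J gene, constant gene and junction bases were taken as 1 clonotype, the junction being the CDR3 plus the conserved cysteine and tryptophan codons that flank it. The clonotypes with 9 to 14 residues, 210982 in all, served for comparison. The RNA came from the deep cervical lymph nodes, which drain the brain and meninges, of C57BL/6 wild-type mice with an intracranial GL261 glioma, a mouse glioma cell line. Nodes were taken on day 20. All mice carried the tumor. They received isotype IgG (n = 5) or an antibody to the inhibitory T cell receptor CTLA-4 (n = 5), with doses and times of injection not given in the sources used here. No mice without a tumor were analysed here. RNA was taken from whole unsorted node cells, 1 library per mouse, so B cells and plasma cells are read together and more cells of a clone cannot be told apart from more RNA per cell.

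The CDR3 of the heavy chain lies at the centre of the antigen-binding site. It is written by the joining of a V, a D and a J segment: nucleases trim the segment ends, terminal deoxynucleotidyl transferase adds bases that no segment holds, and what is left sets the length. A short CDR3 keeps less of the D segment and of the added bases, and a V gene with few bases beyond the cysteine codon starts the loop shorter. After activation, B cells can switch from IgM and IgD to IgG, IgA or IgE and gather mutations in the V gene.

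The 5 short rearrangements found in most mice are shown first, as the short junctions that mice shared most. They are not typical of the rest, being shared. On average shared short rearrangements held fewer bases outside the segments than those of 1 mouse. Of those shown, IGHV1-47 ARGGFAY and IGHV1-50 ARGGY nevertheless hold 4 and 5 such bases. Junctions run 5′ to 3′, from the cysteine to the tryptophan codon. Capitals mark bases assigned to neither V nor J where no D segment was called; where a D was called, or where no base was left over, the whole junction is in lower case. Each name gives the V gene, the J gene and the CDR3 residues.
IGHV1-47 IGHJ3 ARGGFAY: tgtgcaaggGGGGggtttgcttactgg
IGHV2-3 IGHJ3 AKLFAY: tgtgccaaacTgtttgcttactgg
IGHV14-3 IGHJ2 ANWDY: tgtgctaactgggactactgg
IGHV1-50 IGHJ2 ARGGY: tgtgcaagaGGGGGctactgg
IGHV3-6 IGHJ2 AREDY: tgtgcaagagaGgactactgg
The first of these occurred in 7 mice, the next 2 in 6 mice each and the last 2 in 5 mice each. All 5 occurred in both groups, and all were rare, with summed counts over the mice of 12 to 27. They were seen as IgM or IgD or, for the IGHV3-6 junction, also without a class call.

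The next junctions led the short clonotypes of a mouse by deposited count, the whole number that the tables give for each assembled sequence. They are shown because the leading clonotype of a mouse held from 8.43% to 79.1% of its short counts.
IGHV1-49 IGHJ1 AREYFDV: tgtgcaagGGAgtacttcgatgtctgg
IGHV14-4 IGHJ3 TTSH: tgtactacaagtcattgg
IGHV1-47 IGHJ3 ALLRFAY: tgtgcattactacggtttgcttactgg
IGHV1-55 IGHJ3 AYDGSAY: tgtgcttatgatggctccgcttactgg
IGHV5-4 IGHJ2 ARAYEGY: tgtgcaagagcctacgagggctactgg
IGHV1-15 IGHJ2 TRVDY: tgtacaagaGttgactactgg
Their values by mouse are given further on.

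Some libraries shared sequences. Isotype replicates 3 and 4, and anti-CTLA-4 replicates 3 and 4, had consecutive library names, and in each pair the expanded junctions of replicate 3 recurred at lower count in replicate 4. Such recurrence was not confined to these pairs. TTSH was at 11403, 337 and 6 in isotype replicates 1, 2 and 3, summed over constant genes. By the same sum IGHV1-74 ASTGFDY was at 1768 and 26 in anti-CTLA-4 replicates 1 and 2. TRVDY was at 2417 and 66 in anti-CTLA-4 replicates 2 and 3. In isotype replicate 4, 20 of 30 short IgG clonotypes (66.7%) had more counts in another mouse, and they held 96.6% of its short IgG counts. In anti-CTLA-4 replicate 4 this was so for 11 of 22 (50%), holding 53.8% of the counts. In isotype replicate 2 it was so for 10 of 65 (15.4%), holding 19.6%. Over all classes the clonotypes with more counts elsewhere were 1.67% to 4.15% of a mouse's short clonotypes. By counts they weighed more in some mice. They held 73.4% of the short counts of isotype replicate 4, 22.9% of those of anti-CTLA-4 replicate 4 and 8.53% of those of isotype replicate 2. Calls that were lost without such clonotypes are given with and without them.

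Short CDR3s formed the lower tail of 1 broad length distribution. Of the 16790 short clonotypes, 9004 had 7 residues, 4772 had 6, 2757 had 5, 249 had 4, 7 had 3 and 1 had a single residue. Lengths of 7 residues took 3.19% ± 0.172 (SD, n = 10) of a mouse's clonotypes and 8 residues, just outside the limit, 5.07% ± 0.203. Across this limit J gene use was close: IGHJ2 stood at 50.3% ± 2.22 at 7 residues and 51.0% ± 2.28 at 8, and IGHJ4 at 12.1% ± 0.840 and 13.6% ± 1.08. Rearrangements seen in another mouse were 5.04% ± 0.768 of those with 7 residues and 2.32% ± 0.573 of those with 8 (SD, n = 10 each).

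**Figure D1:**
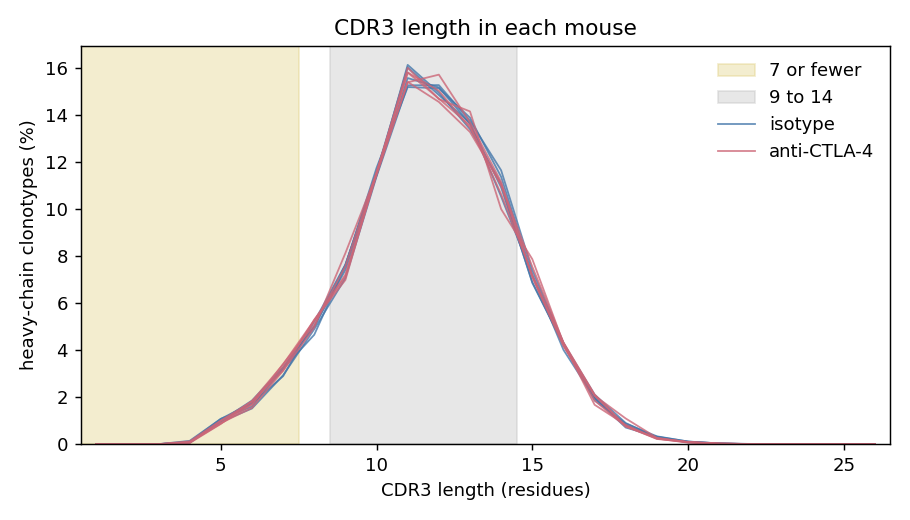
Share of heavy-chain clonotypes (%) by CDR3 length (residues), 1 line per mouse, for 5 isotype and 5 anti-CTLA-4 mice, with the short lengths and the comparison lengths shaded. The lines of the 10 mice lie close together, and the share at 7 residues averages 3.19%.

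The short share of all heavy-chain clonotypes did not differ between the groups beyond their spread. It was 6.21%, 5.51%, 6.00%, 6.19% and 5.71% in isotype replicates 1 to 5 and 5.90%, 6.04%, 6.35%, 5.66% and 6.06% in anti-CTLA-4 replicates 1 to 5, so the groups overlapped. Counting error was not small beside the spread of the mice. The exact Clopper-Pearson 95% intervals, which cover counting error only, ran from 5.29 to 5.73 for the lowest mouse and from 6.03 to 6.69 for the highest. The means were 5.92% ± 0.308 and 6.00% ± 0.252 (SD, n = 5 each), a difference of 0.0781 percentage points by the two-sided exact permutation test (p = 0.635, adjusted p = 0.982 over 5 tests). The smallest p that 5 against 5 mice can give is 0.00794.

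By class, IgM and IgD, the classes of naive B cells, had short shares between 5.43% and 6.60% in every mouse. IgG, the class of most switched responses, was more variable. Its short share was 14.1%, 9.19%, 8.93%, 11.3% and 3.59% in isotype replicates 1 to 5 and 2.78%, 7.73%, 10.3%, 5.53% and 8.18% in anti-CTLA-4 replicates 1 to 5. These rest on 7 to 106 short IgG clonotypes per mouse. Isotype replicate 5, with 7 of 195, has an exact 95% interval of 1.46 to 7.26. Over the 10 mice the IgG share exceeded the IgM share by 2.27 percentage points on average, 8.16% ± 3.46 against 5.89% ± 0.276 (SD, n = 10), and was higher in 7 of 10 mice, but the difference did not pass (exact sign-flip permutation p = 0.0605, adjusted p = 0.182 over 3 classes). With 6 or fewer residues as the limit it turned to a difference of -0.919. IgA, the mucosal class, stood at 6.02% ± 2.14, 0.133 points above IgM, which did not pass (adjusted p = 0.867, exact sign-flip), and fell below IgM with the limit of 6 residues (a difference of -1.32, adjusted p = 0.0234, exact sign-flip). The group difference in the IgG share, 6.90% ± 2.86 after anti-CTLA-4 against 9.42% ± 3.86 after isotype (SD, n = 5 each), was within the spread (exact permutation p = 0.270, adjusted p = 0.972). The IgG subclasses had mean short shares of 7.56% (IgG2b), 8.11% (IgG2c), 8.34% (IgG1) and 10.2% (IgG3), with an SD over the 10 mice of 3.95, 4.19, 5.15 and 4.98.

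**Figure D2:**
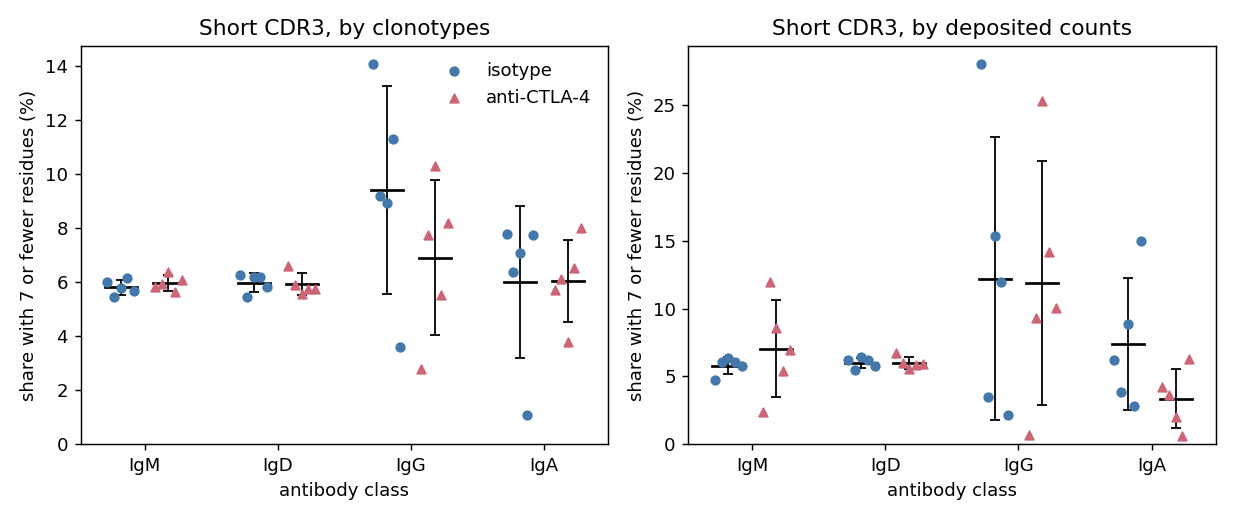
Share with 7 or fewer residues (%) in each antibody class, by clonotypes (left) and by deposited counts (right), 1 point per mouse, with a line at the group mean and bars of 1 SD (n = 5). IgM and IgD points are tight by clonotypes, whereas IgG ranges from 2.78% to 14.1%.

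Weighted by deposited counts, short CDR3s took 9.59% of all heavy-chain counts over the 10 mice. The share varied widely between mice. Per mouse the share was 13.1%, 4.50%, 17.1%, 6.68% and 11.01% in isotype replicates 1 to 5 and 1.09%, 7.82%, 20.8%, 3.63% and 8.36% in anti-CTLA-4 replicates 1 to 5, with full overlap and no difference beyond the spread (exact permutation p = 0.619, adjusted p = 0.960 over 5 tests). Clonotypes more counted in another mouse held 73.4% of the short counts of isotype replicate 4 and 22.9% of those of anti-CTLA-4 replicate 4. In IgA the counts were 3.36% ± 2.16 short after anti-CTLA-4 and 7.37% ± 4.86 after isotype (SD, n = 5 each; exact permutation p = 0.127, adjusted p = 0.635). Isotype replicate 5 stood highest at 15%, and without it the difference moved from -4.01 to -2.11 points.

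The clones behind these counts differed from mouse to mouse. In anti-CTLA-4 replicate 3, the IGHV1-49 AREYFDV junction reached a count of 25328 as IgG2c, 15579 as IgG2b and 5870 as IgG1, together with its other IgG calls 20.2% of that mouse's IgG counts. The most counted sequence of this clonotype had 0 mismatches over 293 aligned V bases. The same junction was in anti-CTLA-4 replicate 4 at 461 as IgG2c. In isotype replicate 1 the 4-residue TTSH junction of IGHV14-4 reached 10142 as IgG1, and with its other IgG calls it held 13.4% of that mouse's IgG counts, with 1 mismatch over 297 V bases. It was also in isotype replicate 2 at 287 and 50 as IgG1 and IgG2b, and in isotype replicate 3 at 6. The only other CDR3s of 4 or fewer residues with a count of at least 10 were TGAY, with IGHV6-3 and with IGHV14-4 in anti-CTLA-4 replicate 3, and TTGS with IGHV14-1 in isotype replicate 1, at counts of 10 to 15.

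Leading clones also included IgE and IgA. In isotype replicate 3 the IGHV1-47 ALLRFAY junction reached 26045 as IgE, the class that arms mast cells, or 49.7% of that mouse's short counts, and 5587 as IgG1. In isotype replicate 4 it stood at 4301 as IgE and 1668 as IgG1, again the leading short clonotype. The IGHV5-4 ARAYEGY junction, seen only as IgA, held 79.1% of the short counts of isotype replicate 5, at 13841. AYDGSAY with IGHV1-55 led anti-CTLA-4 replicate 5 at 5981 as IgG2c, with 2181 as IgG2b and 1664 as IgE. The IGHV1-15 TRVDY junction led anti-CTLA-4 replicate 2 at 2417, as IgM with 0 mismatches over 294 V bases, and was in replicate 3 at 66. The leading IgG clonotype of anti-CTLA-4 replicate 2 was IGHV1-49 IGHJ1 AREGLDV at 1997 as IgG1. The remaining leaders were small: ASTGFDY with IGHV1-74 at 792 in anti-CTLA-4 replicate 1, ARGFSDV with IGHV1-69 at 626 in anti-CTLA-4 replicate 4, AYGDVDY with IGHV1-64 at 957 in isotype replicate 2 and, as the leading IgG of isotype replicate 5, ARGEFAY with IGHV1-18 at 207. Of the 10 leading clonotypes, those of 5 mice were IgG2c or IgG2b with 7 residues, and none of these had more than 1 V mismatch.

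Short junctions held fewer bases outside the segments. The mean number of such bases was 4.16 ± 0.0900 in short and 7.05 ± 0.0202 in 9 to 14 residue clonotypes (SD, n = 10). No D segment was called in 58.3% ± 2.24 of the short and 8.82% ± 0.164 of the comparison clonotypes, and no base was left over in 7.11% ± 0.794 and 0.839% ± 0.0595. In IgM the V segment held 8.21 ± 0.0560 bases of a short junction and 9.24 ± 0.0174 of the others. A D call needs a run of matching bases, so a lack of a call in a short junction does not show that no D base is there. These measures follow length in part and are given without a test.

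J gene use differed strongly between short and other CDR3s, in every mouse. IGHJ2 had a lowest, median and highest value over the 10 mice of 47.1%, 50.8% and 53.3% among short clonotypes, and it stood between 33.1% and 34.2% among those of 9 to 14 residues. The means were 50.7% ± 1.95 against 33.6% ± 0.396 for IGHJ2 and 31.0% ± 1.82 against 24.7% ± 0.551 for IGHJ3, both higher in short. IGHJ4 and IGHJ1 are the mouse J genes with the most coding bases before the tryptophan. IGHJ4 was at 12.2% ± 0.936 against 26.4% ± 0.469, and IGHJ1 at 6.11% ± 1.13 against 15.3% ± 0.361, both lower in short (SD, n = 10 each). Each difference had the same sign in 10 of 10 mice (exact sign-flip permutation, adjusted p = 0.00195 over 4 genes, the smallest it can give), and the values of short and other clonotypes did not overlap for any J gene. All 4 genes tested passed, or 100% of the background, and since the shares sum to the whole a rise of some entails a fall of others.

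Between the groups, IGHJ3 among short clonotypes was 32.3%, 31.4%, 32.7%, 32.3% and 32.7% in isotype replicates 1 to 5 and 28.6%, 29.1%, 30.9%, 27.8% and 32.03% in anti-CTLA-4 replicates 1 to 5. Every anti-CTLA-4 mouse but replicate 5 lay below all isotype mice. IGHJ4 was 11.6%, 12.6%, 11.9%, 11.1% and 10.6% in isotype and 12.4%, 12.997%, 13.6%, 12.4% and 13.1% in anti-CTLA-4 mice, where only isotype replicate 2 reached the anti-CTLA-4 range. IGHJ3 was lower after anti-CTLA-4 by 2.58 percentage points (a difference of -2.58; exact permutation p = 0.0159, adjusted p = 0.0476) and IGHJ4 higher by 1.34 (p = 0.0238, adjusted p = 0.0476 over 4 genes, exact permutation). These 2 of 4 genes are 50% of those tested. Both calls were lost without clonotypes 1 junction base away from a clonotype of at least 10 times their count in the same mouse and class (263 short clonotypes, 1.57%): the differences were then -2.30 and 1.17, and both had the adjusted p 0.0635 (exact permutation). Both calls were also lost without isotype replicate 1, 3, 4 or 5 or anti-CTLA-4 replicate 2 or 3, and that of IGHJ4 without anti-CTLA-4 replicate 5, with differences of -3.16 to -2.10 for IGHJ3 and 1.10 to 1.61 for IGHJ4 over all 10 omissions. A limit of 6 residues ended both as well (-2.13 and 1.90, adjusted p = 0.148 by the exact permutation test). The difference of short from other clonotypes in IGHJ4 itself differed between the groups by 1.63 percentage points (exact permutation of mice, adjusted p = 0.0317), and that of IGHJ3 did not pass (adjusted p = 0.0952).

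**Figure D3:**
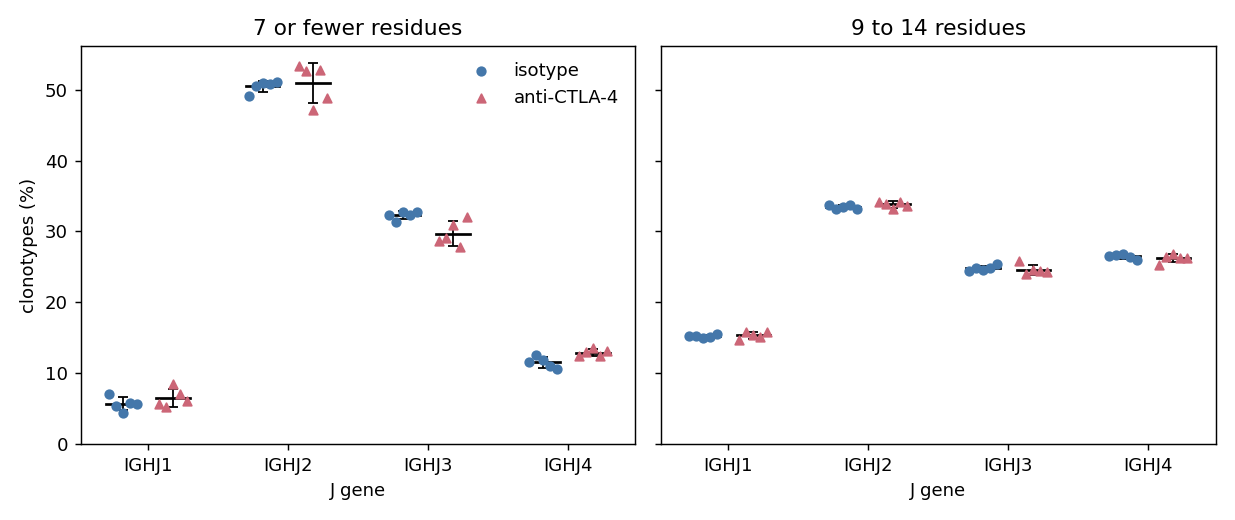
J gene use (% of clonotypes) among CDR3s of 7 or fewer residues (left) and of 9 to 14 residues (right), 1 point per mouse, with a line at the group mean and bars of 1 SD (n = 5). IGHJ2 rises from 33.6% to 50.7% and IGHJ4 falls from 26.4% to 12.2% in short CDR3s.

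V gene use of short clonotypes also differed widely from that of longer ones. edgeR's quasi-likelihood test on clonotype numbers, with the mouse as a block, called 47 of 82 V genes with Benjamini-Hochberg adjustment (57.3%), 21 higher in short (25.6%) and 26 lower (31.7%). DESeq2 called 48. For 17 of the 47 the shares of the 10 mice in short and in 9 to 14 residue clonotypes did not overlap. The gene with the smallest p was IGHV6-3, which had a lowest, median and highest share of 4.35%, 4.63% and 7.07% among short clonotypes and lay between 1.14% and 1.45% among the others. Its log2 fold change was 2.21 ± 0.0773 (SE; adjusted p = 5.01e-19). IGHV14-4, the gene of the TTSH junction, took 5.18% ± 0.694 of short and 1.99% ± 0.218 of other clonotypes (log2 fold change 1.55). IGHV6-6 had a log2 fold change of 1.81, IGHV9-1 of 1.42, IGHV10-1 of 1.41 and IGHV1-15, the gene of TRVDY, of 0.84. Each of these 6 was higher in short in 10 of 10 mice.

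Among genes lower in short, IGHV8-12 took 0.204% ± 0.129 of short and 2.86% ± 0.18 of other clonotypes (SD, n = 10), a log2 fold change of -3.62 ± 0.175 (SE; adjusted p = 4.68e-16). IGHV8-8 followed at -2.25 and IGHV5-16 at -2.21. IGHV1-62-2 and IGHV1-71, which these sequences cannot part, stood at -2.99, IGHV2-9-1 at -2.67 and IGHV1-63 at -2.41. All 6 were lower in short in each of the 10 mice, and their adjusted p by edgeR was at most 2.30e-07. They rest on 35, 62, 48, 13, 13 and 13 short clonotypes over all mice, in the order named. A gene could pass the filter on low numbers through the longer clonotypes alone, so genes almost absent from short CDR3s were tested too. IGHV1-26 (0.39, adjusted p = 3.65e-05) and IGHV1-64 (0.05, adjusted p = 0.638, and below 0 without TMM scaling) were, with IGHV14-4, IGHV6-3 and IGHV1-15, the 5 most used V genes among short clonotypes. Their shares were 4.86% ± 0.822 and 3.91% ± 0.703, and that of IGHV1-15 was 4.29% ± 0.5 (SD, n = 10 each).

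By family, IGHV1, the largest, had 10 genes higher, 11 lower and 22 not called of 43 tested, with a median log2 fold change of 0.02 beside -0.01 over all 82 genes. IGHV2 had 1 higher and 5 lower of 6, with a median of -0.85; IGHV2-3, the gene of AKLFAY, was the higher one at 0.66. IGHV5 had 1 higher and 1 lower of 7, with IGHV5-17 at 1.06 against IGHV5-16 at -2.21, and a median of 0.11. Without TMM scaling the median over all 82 genes moved from -0.01 to -0.18, and those of IGHV1 (-0.15) and IGHV5 (-0.05) turned below 0, so changes are relative to that scaling. Families singled out after their values were seen were IGHV6 (7.08% ± 0.932 of short and 1.87% ± 0.131 of other clonotypes), IGHV14 (10.6% ± 1.22 and 6.19% ± 0.586) and IGHV8 (0.815% ± 0.169 and 5.34% ± 0.283; SD, n = 10 each). Of the V genes typical of B-1 cells, a lineage of innate-like B cells, IGHV11-2 was higher in short (log2 fold change 0.92, adjusted p = 0.00287 by edgeR) and IGHV7-1 lower (-1.58, adjusted p = 0.000894). These rest on 47 and 9 short clonotypes. IGHV12-3 was in 0 of 16790 short clonotypes and in 211 of 210982 others (0.100%). With 3 taken as the upper limit of a count of 0, the short share could be up to 0.0179%. This limit treats the pooled clonotypes as independent and leaves out the spread between mice. IGHV11-1 was in 0 short and 9 other clonotypes.

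The genes called in either direction differed in how many V bases they leave in a junction. Taken from IgM clonotypes of 9 to 14 residues, this mean was 7.40 bases for IGHV6-3, 8.27 for IGHV14-4 and 8.07 for IGHV6-6, but 11.3 for IGHV8-12, 11.5 for IGHV8-8 and 15.6 for IGHV1-62-2 and IGHV1-71. It averaged 8.74 ± 0.779 over the 21 genes higher in short and 9.99 ± 1.56 over the 26 lower (SD over genes). Across the 82 genes the log2 fold change and the V bases had a Pearson r of -0.53 and a Spearman rho of -0.53. This is a description across genes, which share libraries and are not independent replicates. IGHV5-16, at 9.01 bases, was lower in short with no excess of V bases.

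**Figure D4:**
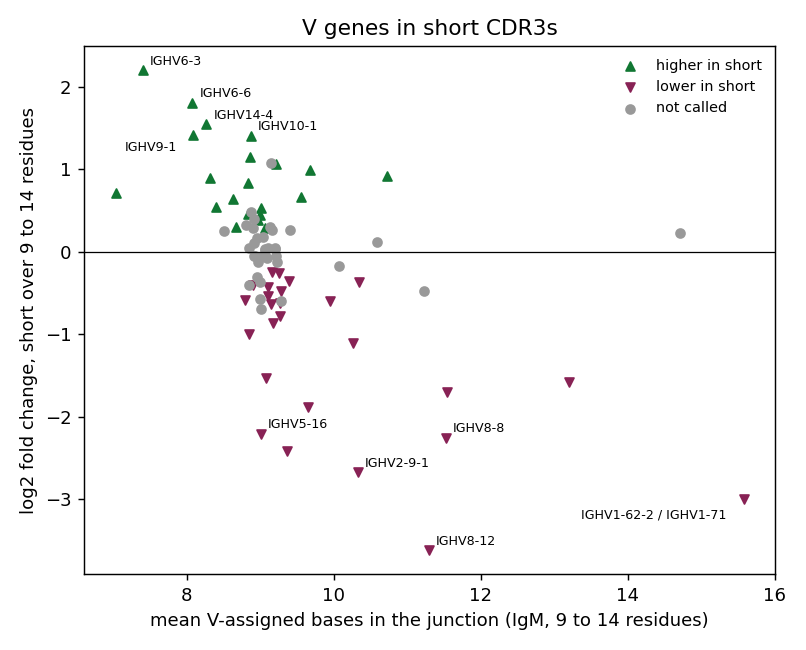
log2 fold change of each V gene in short over 9 to 14 residue clonotypes (vertical axis) against its mean number of V-assigned junction bases in IgM clonotypes of 9 to 14 residues (horizontal axis), 1 point per gene (82 genes), marked by the edgeR call. IGHV6-3, at 7.40 bases, is highest at 2.21 and IGHV8-12, at 11.3 bases, lowest at -3.62.

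V gene use among short clonotypes gave no call between the groups. edgeR called 0 of 40 V genes (0%), 5 had an unadjusted p below 0.05, and DESeq2 also called 0, with 1 below 0.05. The smallest adjusted p by edgeR was 0.269, shared by IGHV1-85 (log2 fold change of anti-CTLA-4 over isotype 0.57 ± 0.223, SE), IGHV5-17 (0.48), IGHV1-74 (0.38) and IGHV10-1 (-0.44 ± 0.195, SE). IGHV1-50 stood at -0.32 and IGHV14-3 at -0.37. The test of whether short and other clonotypes differed by a different amount in the 2 groups called 0 of 82 genes, with 9 below an unadjusted p of 0.05, by edgeR. Its smallest p was that of IGHV1-49 (interaction log2 fold change 3.10 ± 0.965, SE; adjusted p = 0.168), the gene of AREYFDV, which took 1.29% ± 1.88 of the short clonotypes in anti-CTLA-4 mice and 0.0733% ± 0.0805 in isotype mice (SD, n = 5 each). Anti-CTLA-4 replicate 3 alone stood at 4.52%, and without it the anti-CTLA-4 mean was 0.478%.

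The interior residues of short CDR3s differed as well. Leaving out the 2 residues at each end keeps few residues of a short CDR3, and none of the shortest, but a longer stretch of the others. The parts compared are thus unlike, and how far the differences below follow from length was not tested. Counted without the 2 residues at each end, tyrosine, an aromatic residue that dominates mouse CDR3s, was at 7.63% ± 0.739 in short and 19.8% ± 0.177 in other clonotypes. Phenylalanine was at 14.05% ± 0.732 against 9.05% ± 0.0363, leucine at 8.22% ± 0.729 against 4.17% ± 0.0452, glycine at 17.8% ± 0.862 against 14.3% ± 0.126 and glutamate at 4.94% ± 0.675 against 2.69% ± 0.0581. Serine was at 6.09% ± 0.658 against 8.56% ± 0.119 and alanine at 3.48% ± 0.332 against 5.81% ± 0.0567 (SD, n = 10 each). In all, 17 of 20 residues passed (85%), 9 higher in short and 8 lower, by exact sign-flip permutation, at adjusted p values up to 0.0253. The other calls were arginine (6.06% ± 0.520 against 4.39% ± 0.0751), proline, lysine, glutamine and tryptophan, all higher, and aspartate, histidine, methionine, asparagine and cysteine, all lower. Isoleucine, threonine and valine did not pass. With every CDR3 residue counted, alanine turned to a higher share in short (a difference of 3.23 percentage points), and phenylalanine, glycine, glutamine and tryptophan to lower ones.

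Between the groups 0 of 20 residues passed (0%) by the exact permutation test, with 1 below an unadjusted p of 0.05. This was glutamate, at 5.44% ± 0.462 after anti-CTLA-4 and 4.44% ± 0.433 after isotype (SD, n = 5 each; p = 0.00794, adjusted p = 0.159, exact permutation). The most frequent short CDR3 by clonotypes was ARGFAY, with 73 clonotypes over 33 V calls and 10 mice. ARGGFAY had 66, AREDY 64, and ARGAY and ARGYFDV 61 each, all in 10 mice. There were 10698 distinct short CDR3s, of which 23 were in 10 mice and 9008 in a single mouse. Of the clonotypes, 40.6% ended in DY, the end that IGHJ2 and IGHJ4 write, and 24% in AY, that of IGHJ3.

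V mismatches to germline, a measure of somatic mutation, were compared per 100 aligned V bases. IgM clonotypes had 0.160 ± 0.0367 in short and 0.133 ± 0.0129 in others (SD, n = 10), higher in 8 of 10 mice, which did not pass after adjustment (exact sign-flip p = 0.0215, adjusted p = 0.105 over 6 measures). The difference did pass with limits of 6 residues (adjusted p = 0.0313, exact sign-flip) and 8 residues (0.0117), with an equal V gene mix (0.0234), without likely strain variants (0.0117) and without isotype replicate 4 (0.0469). IgM clonotypes without a mismatch were 81.1% ± 1.52 of short and 82.1% ± 1.17 of others (SD, n = 10; adjusted p = 0.105, exact sign-flip), a difference that passed with the limit of 8 residues (-1.26, adjusted p = 0.0117, exact sign-flip) and without anti-CTLA-4 replicate 5 (-1.23, adjusted p = 0.0469). IgG clonotypes had 0.604 ± 0.398 in short and 0.636 ± 0.273 in others, and 47.9% ± 13.4 and 48.8% ± 9.37 had no mismatch, so neither differed beyond the spread (adjusted p = 0.879 by the exact sign-flip permutation test). IgA, with 2 to 17 short clonotypes per mouse, had 47.4% ± 23.5 without mismatch in short and 36.6% ± 9.66 in others (adjusted p = 0.293, exact sign-flip), and mismatch frequencies of 0.719 ± 0.351 and 0.797 ± 0.207 (adjusted p = 0.879, exact sign-flip). With a limit of 6 residues both IgA differences passed, at 45.6 points and -0.710 (adjusted p = 0.0234 each, exact sign-flip). That limit keeps only part of these few IgA clonotypes, and a mouse with none left gave no value. Both results therefore rest on very small numbers. The frequency also passed without anti-CTLA-4 replicate 1 (-0.198, adjusted p = 0.0469, exact sign-flip).

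Within short IgG, the groups differed. Clonotypes without a V mismatch were 34.4%, 36.9%, 35.8%, 36.7% and 42.9% of short IgG in isotype replicates 1 to 5 and 76.2%, 47.7%, 54.7%, 59.1% and 54.5% in anti-CTLA-4 replicates 1 to 5. The groups did not overlap, with every anti-CTLA-4 mouse above every isotype mouse. The means were 58.5% ± 10.7 after anti-CTLA-4 and 37.3% ± 3.24 after isotype (SD, n = 5 each), which lie 21.1 points apart (p = 0.00794 by exact permutation, and 0.0476 adjusted over 6 measures). The mismatch frequency was 0.369 ± 0.132 and 0.839 ± 0.447 (p = 0.0159, adjusted p = 0.0476, exact permutation), where isotype replicate 2 stood highest at 1.61 and the groups overlapped. The numbers are small, with 21, 88, 106, 22 and 44 short IgG clonotypes in anti-CTLA-4 and 61, 65, 67, 30 and 7 in isotype mice, and the interval of isotype replicate 5 (3 of 7) runs from 9.90 to 81.6. When clonotypes more counted in another mouse were left out, the difference was 14.6 points and no longer passed (adjusted p = 0.222, exact permutation), and without isotype replicate 2 the adjusted p was 0.0635 (21.0 points). This call was also lost with a limit of 6 residues (4.87 points, adjusted p = 1, exact permutation) and of 8 residues (15.6 points, adjusted p = 0.0952, exact permutation). The call on the frequency was lost without isotype replicate 2 (a difference of -0.276 in place of -0.470) and without any 1 of the 5 anti-CTLA-4 mice (-0.506 to -0.419). It was also lost without clonotypes more counted in another mouse (-0.461, adjusted p = 0.222, exact permutation) and with limits of 6 residues (-0.231, adjusted p = 1) and 8 residues (-0.223, adjusted p = 0.444). Among IgG of 9 to 14 residues the same share was 25.6% to 53.7% in isotype and 46.2% to 59.9% in anti-CTLA-4 mice. The test of whether the group difference was larger in short than in other IgG did not pass (a difference of 13.8 points, exact permutation adjusted p = 0.448), so the group difference is not shown to be particular to short CDR3s. Short IgA without mismatch stood at 61.1% ± 16.8 after anti-CTLA-4 and 33.8% ± 22.2 after isotype (SD, n = 5 each; adjusted p = 0.159, exact permutation), and passed only among clonotypes with a count of at least 2 (28.0 points, adjusted p = 0.0476, exact permutation).

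Counts per clonotype were slightly higher in short CDR3s. The mean log2 count was 0.58 ± 0.14 in short and 0.51 ± 0.14 in others, higher in 9 of 10 mice (exact sign-flip permutation, adjusted p = 0.00586 over 3 measures). A count of at least 10 was reached by 2.17% ± 1.11 of short and 1.49% ± 0.690 of other clonotypes, higher in 8 of 10 mice (adjusted p = 0.00977, exact sign-flip). Both measures pool all classes, and the part of class mix in them was not tested. In IgG the mean log2 count was 2.86 ± 0.59 against 2.51 ± 0.29 (SD, n = 10 each; adjusted p = 0.00586, exact sign-flip). None of these 3 calls held with a limit of 6 residues, where the differences were 0.03 (adjusted p = 0.217, exact sign-flip), -0.0481 percentage points and -0.48. The IgG call was also lost without clonotypes more counted in another mouse (a log2 difference of 0.19, adjusted p = 0.359, exact sign-flip), with a limit of 8 residues (0.21, adjusted p = 0.0918, exact sign-flip) and with each rearrangement counted once per class (0.34, adjusted p = 0.131, exact sign-flip). Between the groups, the mean log2 count of short clonotypes was 0.50 ± 0.09 after anti-CTLA-4 and 0.67 ± 0.13 after isotype (SD, n = 5 each; exact permutation p = 0.0238, adjusted p = 0.0714). It passed without isotype replicate 1 (-0.20) and without clonotypes 1 base from a far more counted one (-0.18), each with adjusted p = 0.0476 by exact permutation. Among clonotypes of 9 to 14 residues the means were 0.43 ± 0.06 after anti-CTLA-4 and 0.59 ± 0.15 after isotype (SD, n = 5 each). The gap did not differ between short and other clonotypes (a difference of -0.0107, exact permutation p = 0.746). It is thus not shown to be particular to short CDR3s. Clonotypes with a count of 1000 or more were short in 0 to 9 cases per mouse, the most in isotype replicate 1 (9 of 42).

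Short rearrangements, the V gene, J gene and junction whatever the class, were found in more than 1 mouse far more often than longer ones. The share of a mouse's short rearrangements that was also in another mouse was 4.53%, 5.14%, 6.77%, 6.96% and 6.09% in isotype replicates 1 to 5 and 6.36%, 5.76%, 6.51%, 5.74% and 5.66% in anti-CTLA-4 replicates 1 to 5. For 9 to 14 residues it lay between 0.652% and 1.65%, below every short value. The means were 5.95% ± 0.749 against 1.03% ± 0.360 (SD, n = 10; adjusted p = 0.00195, the smallest the exact sign-flip permutation test can give). By V gene and CDR3 residues in place of junction nucleotides, the shares were 13.8% ± 1.10 and 2.28% ± 0.339, higher in 10 of 10 mice with the same p. The difference by rearrangement was 5.85 points with the longer clonotypes thinned to the number of short ones, and 1.85 points without clonotypes with more counts in another mouse, a step that by construction keeps a shared junction in the mouse where it is most counted. Over all mice 425 of 15731 short rearrangements (2.70%) were in 2 or more mice, against 955 of 205568 others (0.465%). The shared short ones held fewer bases outside the segments, 2.73 on average against 4.26 for those in 1 mouse, and 14.6% of them against 6.56% had none.

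**Figure D5:**
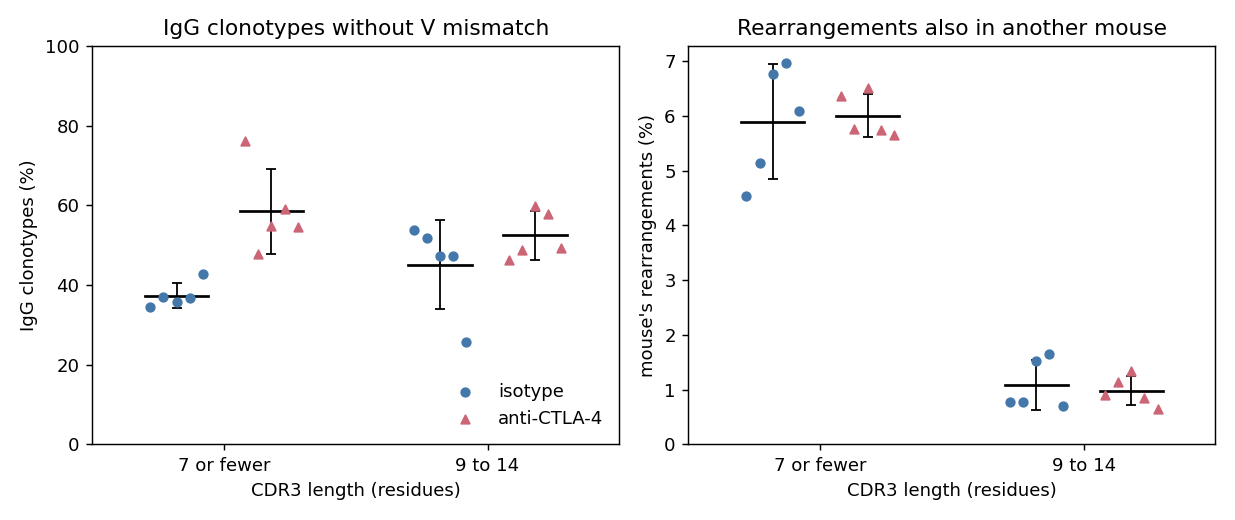
Left, IgG clonotypes without a V mismatch (%); right, rearrangements also found in another mouse (% of a mouse's rearrangements), for CDR3s of 7 or fewer and of 9 to 14 residues, 1 point per mouse, with a line at the group mean and bars of 1 SD (n = 5). Short IgG lies at 34.4% to 42.9% in isotype and 47.7% to 76.2% in anti-CTLA-4 mice, and sharing is higher in short CDR3s in every mouse.

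Pairs of mice were compared by the Jaccard index of their short rearrangements, the shared as a percentage of all in either mouse. It averaged 0.559% ± 0.221 over the 10 isotype pairs, 0.530% ± 0.154 over the 10 anti-CTLA-4 pairs and 0.410% ± 0.143 over the 25 pairs between groups (SD over pairs, which share mice). Pairs within a group exceeded pairs between groups by 0.135 (exact permutation of mice, p = 0.00794). The highest pair was isotype replicates 3 and 4 at 1.06%, then anti-CTLA-4 replicate 4 with isotype replicate 3 at 0.817% and anti-CTLA-4 replicates 3 and 4 at 0.813%. When clonotypes more counted in another mouse were left out, the difference was 0.0323 and did not pass (exact permutation p = 0.0873). That step removes most overlap by construction, since a shared junction stays only where it is most counted. It therefore cannot show where the difference came from. The difference also did not pass without isotype replicate 4, at 0.101 (p = 0.0714, exact permutation), or with a limit of 6 residues, at 0.103 (p = 0.0952, exact permutation).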

How the data were processed

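For each mouse the authors deposited an AIRR table, whose columns, per the file headers, hold gene calls, alignments and a whole-number count of each assembled sequence. Libraries were made with a mouse B cell receptor kit with molecular identifiers, per the labels' protocols. Which aligner and germline set were used, and if counts stand for reads or for molecules, was not given in the sources used here. Productive heavy-chain totals were 159157 to 362445 counts per mouse. Lengths deposited by the authors give the bases between segments.

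Rows with the same V, J and constant gene and junction were joined. Joint V names were kept as they stand. The constant calls set the class. Mismatches were counted in the most counted row, over at least 200 aligned V bases. Values per mouse were compared in Python 3.11.15 with scipy 1.17.1: two-sided exact permutation between groups, exact sign-flips within mice, both with Benjamini-Hochberg adjustment within a family. V genes were tested on clonotype counts with edgeR 4.0.16 (quasi-likelihood, TMM, filterByExpr; the standard error comes from the F statistic) and DESeq2 1.42.0 as an alternative. The threshold was an adjusted p of 0.05. Scripts were tested on simulated data.

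All 108 V names matched the gene table. The members, lists and tests were chosen with earlier results of these data known. Named V genes were the 6 with the smallest p in each direction against longer CDR3s, 3 in each direction between groups, the 5 most used and the B-1 list (IGHV11-1, IGHV11-2, IGHV12-3, IGHV7-1). Named clonotypes were the leading short and short IgG clonotype of each mouse, the 5 rearrangements in most mice and the shortest CDR3s with a count of at least 10. Same-numbered mice did not deviate together (correlations from -0.251 to 0.0156), so replicate numbers were not used as pairs. Nothing in the labels says whether mice of a group shared a cage or a day.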

Additional observations from a re-analysis of the deposited data

Results flagged for a closer look

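Within groups of 5 mice, 1 value stood apart from the other 4 by Dixon's test in 5 of the measures of short clonotypes. Chance alone marks about 1 in 20 groups. Many measures were searched in both groups, so some such marks are to be looked for by chance. The 5 are not shown to exceed them. In isotype replicate 1 IGHJ2 was at 49.04% of short clonotypes, the next value being 50.57%. In anti-CTLA-4 replicate 4 the mean log2 count of short IgG was 4.33, the next 2.77; 11 of its 22 short IgG clonotypes had more counts in another mouse, and their part in this value was not tested. In anti-CTLA-4 replicate 1 the IgA mismatch frequency was 1.53 per 100 V bases, the next 0.567, and rests on 2 short IgA clonotypes. In isotype replicate 2 the IgG mismatch frequency was 1.61, the next 0.756. In isotype replicate 4 the short share of IgA was 1.08%, the next 6.36%, from 2 of 186 clonotypes.

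The difference of IGHJ4 use between short and longer CDR3s differed between the groups by 1.63 percentage points (exact permutation of mice, adjusted p = 0.0317 over 4 J genes). Results of this test under other settings are not given here. The group call of IGHJ4 among short clonotypes was lost with a limit of 6 residues and at a count of at least 2. It was also lost without clonotypes 1 base from a far more counted one, and in 7 of the 10 omissions of a mouse.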

How the results depend on the processing

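The differences of short from longer CDR3s in the 4 J genes and in both sharing measures kept their direction and passed under every alternative tried, and so did the 12 V genes named for their differences wherever they were tested. Differences are anti-CTLA-4 minus isotype or short minus longer CDR3s, in percentage points unless stated, mismatches being per 100 V bases. Where a call was lost and no other reason is given, the cause was not tested.

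With a limit of 6 residues, the short share minus that of IgM was -0.0506 in IgD, -0.919 in IgG and -1.32 in IgA, and the group difference was -0.0804 over all classes, -0.0331 in IgM, 0.184 by counts and 0.965 by counts in IgA. Between groups IGHJ1 was at -0.751, IGHJ3 at -2.13 and IGHJ4 at 1.90 with 0 J calls, IgA without mismatch at -10.0, IgG without mismatch at 4.87, IgG mismatch frequency at -0.231 and mean log2 IgG count at -0.41. The Jaccard difference was 0.103, and neither it nor the IgG mismatch measures passed. Short against longer, IgG without mismatch was at 4.85, IgM mismatch frequency at 0.0328 (now past the threshold), counts of at least 10 at -0.0481 and mean log2 IgG count at -0.48. With a limit of 8 residues the group difference was 0.0614 for the IgD share, 7.65 for IgA by counts, -0.594 for IGHJ2, 0.168 for IgA mismatches, -0.223 for IgG mismatches, 15.6 for IgG without mismatch and -0.18 for mean log2 IgG count, and IgM mismatches were 0.0337 higher in short, which passed, while neither IgG mismatch measure passed between groups.

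Among clonotypes with a count of at least 2, edgeR called 28 of 52 V genes, all among the 47. IgD minus IgM was -0.0611, and between groups the IgD share was at 0.205, the IgA share at -0.185, IGHJ4 at 1.59 with 1 J call left, and the mean log2 count at 0.0773. Leaving out clonotypes more counted in another mouse, the group difference was 1.02 for IgG by counts, -0.461 for IgG mismatches and 14.6 for IgG without mismatch, and the Jaccard difference 0.0323. The Jaccard index falls by construction in this step.

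Chosen after seeing the data, leaving out clonotypes 1 base from one of at least 10 times their count gave group differences of -2.30 for IGHJ3 and 1.17 for IGHJ4 with 0 J calls, 0.0974 for IgA mismatches, 0.157 for IgM without mismatch and -0.21 for mean log2 IgG count. Also chosen then, counting each rearrangement once per class gave 0.545 for IgG without mismatch in short against longer and -0.0681 for mean log2 IgG count between groups. With all CDR3 residues, alanine was at 3.23, phenylalanine -0.496, glycine -0.313, glutamine -0.0467 and tryptophan -0.741. With an equal V gene mix, short minus longer was 0.0292 for IgG mismatches, 1.22 for IgG without mismatch and 0.0305 for IgM mismatches, which then passed. Without likely strain variants IgM mismatches were 0.0383 higher in short, which passed, and IgM without mismatch differed by 0.202 between groups. The log2 fold change of IGHV1-64, not called, was -0.0292 at a count of at least 2, -0.10 at 6 residues, -0.0734 in IgM alone, -0.12 without TMM and -0.0023 by DESeq2. Without the filter on low counts 2 of 113 V genes passed between groups, IGHV1-47 and IGHV1-49.

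Leaving out each mouse in turn, the short share differed between groups by -0.0263 to 0.163 over all classes, -0.241 to 0.0224 in IgD, -1.21 to 0.581 in IgA and -3.67 to 3.63 in IgG by counts. IgD minus IgM was -0.0165 to 0.162 and IgA minus IgM -0.0823 to 0.710. The group difference was -0.155 to 1.40 for IGHJ2, -3.16 to -2.10 for IGHJ3 and 1.10 to 1.61 for IGHJ4, with 0 to 2 J calls. It was 16.7 to 23.8 for IgG without mismatch, -0.559 to -0.276 for IgG mismatches, -0.726 to 0.418 for IgM without mismatch, -0.0343 to 0.724 for counts of at least 10 and -0.26 to 0.25 for mean log2 IgG count. Short minus longer was 0.0167 to 0.0308 for IgM mismatches, -0.169 to 0.0600 for IgG mismatches and -4.30 to 1.17 for IgG without mismatch. The Jaccard difference was 0.101 to 0.169. With 4 mice in a group fewer reassignments exist, but this does not raise the smallest p of the exact permutation test between groups.

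With the replicate number as a block the differences stayed at -2.58 for IGHJ3, 1.34 for IGHJ4, -0.470 for IgG mismatches and 21.1 for IgG without mismatch, with 0 J calls, since 5 pairs allow no p below 0.0625. Same-numbered mice share only a number. The block fit for the Jaccard index was not run. Depth limits the IgG values, which rest on 7 to 106 short clonotypes per mouse.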
